A study of Mus musculus with 6 samples.

Results

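The collagen chain genes were described here: 42 genes whose symbols name an alpha chain of a collagen, out of 37153 genes and unnamed features on a mouse expression array. They were chosen by name alone, as the genes whose probes carry a RefSeq accession of a symbol that starts with Col, followed by the type number, the letter a and the chain number. The RefSeq annotation of GRCm38.p6 held 44 such symbols, and Col6a3 and Col12a1 had no probe matched by accession, so they were not analysed here. The 42 genes had 61 probes, 28 genes with 1 probe and 14 with several. By the form their proteins take, 11 were fibrillar (types I, II, III, V, XI, XXIV and XXVII), 6 belonged to basement membranes (type IV), 8 were fibril-associated collagens with interrupted triple helices (FACIT), and 17 were of other types.

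Total RNA was measured on 6 one-colour arrays, 2 for each of 3 kinds of cultured cell. Muscle-derived stem cells (MDSC) are the cells of digested hindlimb muscle that adhere last when the suspension is moved from dish to dish (preplate 6), and both sets came from 5 week old male mice at passage 1. One set was isolated from mice labelled Mstn null, which lack myostatin, a secreted inhibitor of muscle growth, and the other from WT mice, with 2 isolations of each genotype. Embryonic stem cells (ESC) of the W4 line were sampled at passages 12 and 15, so its arrays are passages of 1 line and their spread may be smaller than that between lines. Neither the Mstn allele nor the number of mice per isolation is given in the sources used here. The labels call the ESC culture feeder free, whereas the growth protocol describes mitotically inactivated fibroblast feeders and a brief plating step to take them away before RNA was made. No culture was treated.

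Collagens are matrix proteins in which 3 alpha chains wind into a triple helix. The fibrillar types assemble outside the cell into the cross-banded fibrils of tendon, skin, bone and the connective tissue around muscle fibres, while type IV forms the sheet-like network of the basement membrane that surrounds each muscle fibre and its satellite cells. FACIT collagens sit on the surface of fibrils, type VI forms beaded filaments between fibrils and basement membranes, and others span the cell membrane or carry sugar chains. In skeletal muscle the fibrillar chains are made mainly by fibroblasts and fibro-adipogenic progenitors.

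Of 59305 non-control spots per array, 53.3% to 64.6% exceeded background clearly (the scanner's well-above-background flag), and none was saturated. A level below is the log2 signal of a probe minus the log2 75th percentile of its array, so levels compare cells for 1 probe and not 1 probe with another. The Mstn probe gave levels of -3.06 and -2.47 in the isolations labelled Mstn-null, where it exceeded background, and of -4.90 and -6.71 in those labelled WT, where it did not (3.04 ± 0.63, at least 3.81-fold, limma adjusted p = 0.135). Whether this probe lies inside the deleted part is not given in the sources used here, so it checks no label, and the genotypes below are those of the libraries as labelled. All 8 pluripotency markers (Pou5f1, Sox2 and others) were well above background on both ESC arrays, while 4 or 5 were so on each MDSC array. Of 10 skeletal muscle markers, 7 to 9 were well above background on each MDSC array, and 6 and 5 on the ESC arrays. The satellite cell gene Pax7 was so on 1 of 4 MDSC arrays and the myogenic factor gene Myf5 on none of them. All 7 macrophage markers with a probe, of 8 listed, were well above background on every MDSC array. On the ESC arrays 3 and 6 of these 7 were so. The flag alone therefore does not identify the cells. Both WT arrays shared a slide and scan of their own, and the other 4 shared the other slide, so slide and WT genotype cannot be told apart. These are bulk cultures, in which fewer cells of a type and less RNA per cell cannot be told apart.

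Of the 42 genes, 38 were well above background on at least 1 array, 26 on all 6, and 4 (Col4a3, Col6a6, Col9a3 and Col13a1) on none. Testing required a signal well above background throughout at least 1 group, which left 36. Because a gene can pass that filter through the group in which it is bright, counts over the 36 describe the tested genes and not the whole family. The plot of levels on each array gives every gene.

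**Figure D1:**
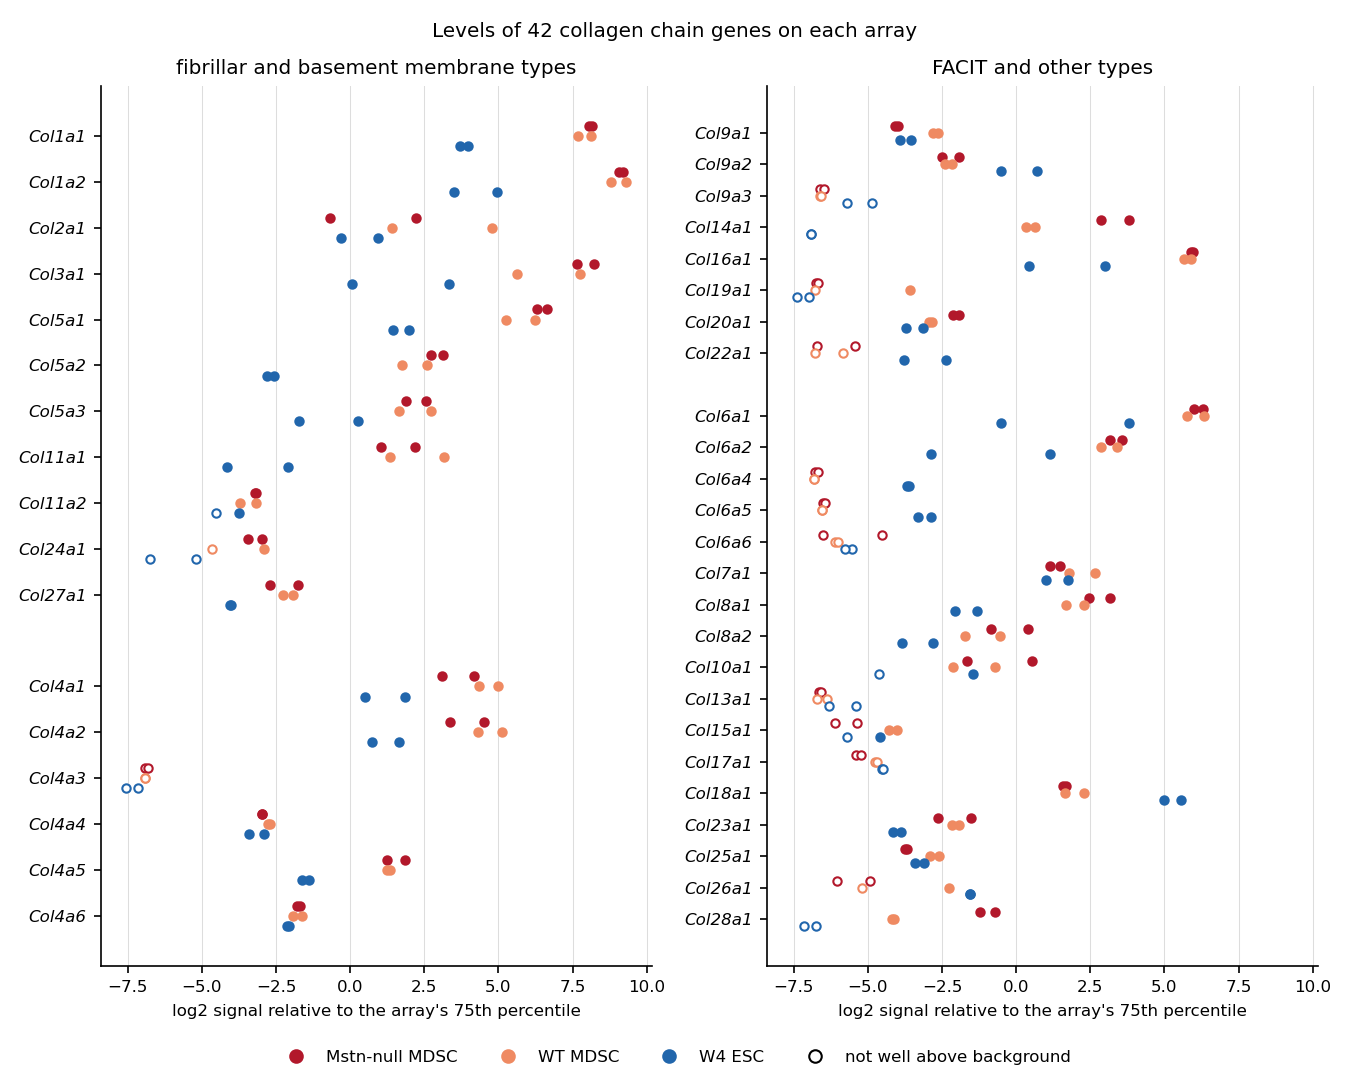
Log2 signal relative to the array's 75th percentile for the 42 collagen chain genes, 1 point per array, with Mstn-null MDSC, WT MDSC and W4 ESC in separate colours and open points where the probe was not well above background. Col1a1 lay between 7.68 and 8.17 on the 4 MDSC arrays and at 3.99 and 3.69 on the ESC arrays, whereas Col18a1 lay between 1.56 and 2.30 on the MDSC arrays and at 4.99 and 5.54 on the ESC arrays.

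The first comparison asked how the matrix genes of MDSC differ from those of pluripotent cells. Most tested collagen chain genes were brighter in MDSC: 21 of 36 were higher than in ESC and 6 were lower at an adjusted p under 0.05, and 9 did not pass. Over all 25057 features tested, 28.3% were higher and 31.4% were lower (59.6% in either direction), so the share of higher calls among the collagen chains was above the background and that of lower calls below it. The median log2 difference, MDSC minus ESC, was 2.28 over the 36 genes (2.01 with genes that have only a bound set to it), against -0.03 over all features. By class of protein, 9 of 11 fibrillar and 3 of 5 tested basement membrane genes were higher and none was lower, while the 6 FACIT genes gave 3 higher and 2 lower, and the 14 other genes 6 higher and 4 lower. Differences are given below with the standard error (SE) and the Benjamini-Hochberg adjusted p of limma, from 4 MDSC and 2 ESC arrays. Where a fold is given as "at least" a value, the adjusted p beside it is that of the difference before the bound. Rescaling the arrays to their medians added 0.14 to the median difference of all features, and the counts became 22 higher and 6 lower. Over all features they became 7165 higher and 6191 lower.

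**Figure D2:**
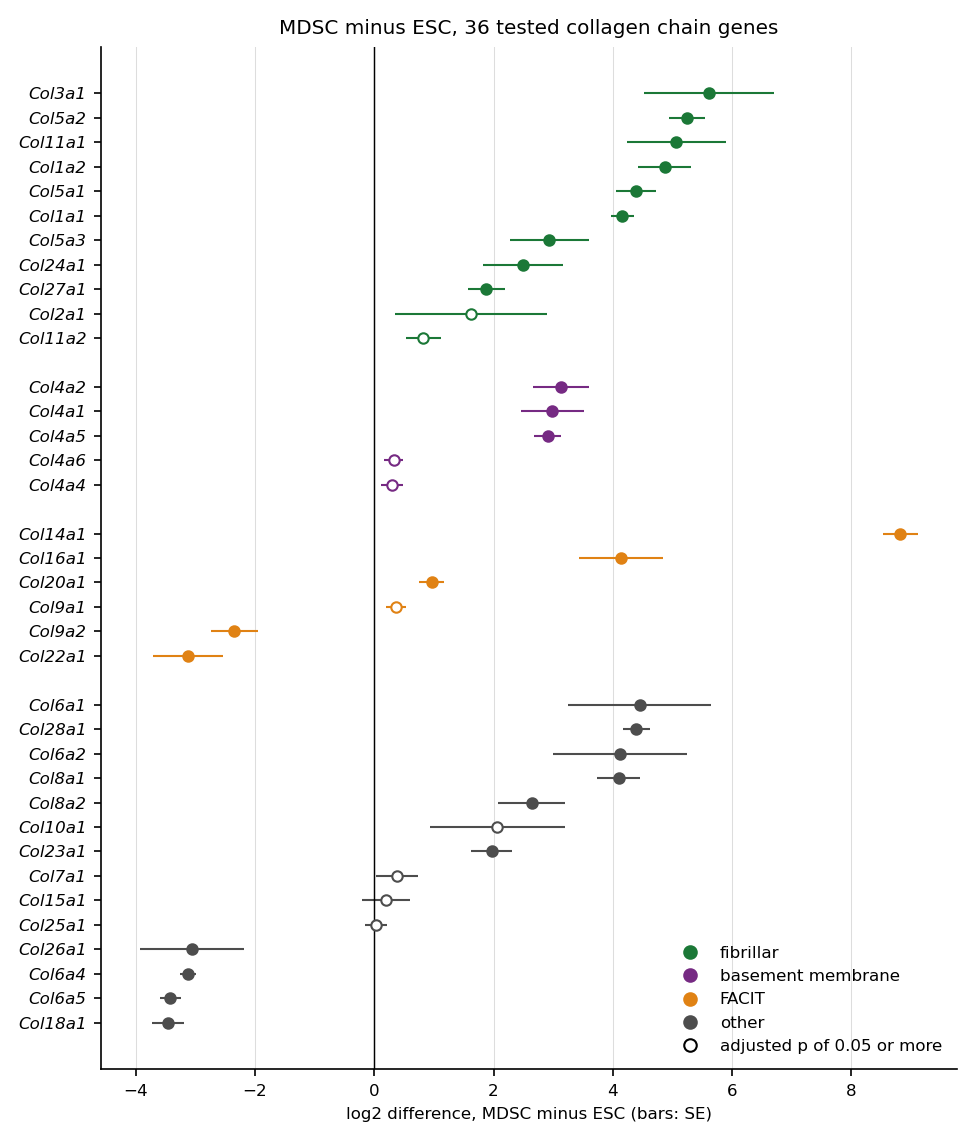
Log2 difference, MDSC minus ESC, for the 36 tested collagen chain genes, ordered by size within each class, with bars of 1 SE and open points where the adjusted p was 0.05 or more. All fibrillar and basement membrane points lie above 0, from 0.29 (Col4a4) to 5.61 (Col3a1), while Col18a1 (-3.46), Col6a5 (-3.43) and 4 other filled points lie below 0.

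Type I collagen, the main protein of tendon and bone, is built from the chains of Col1a1 and Col1a2. Col1a1 had levels of 8.04 and 8.17 on the Mstn-null arrays, 8.11 and 7.68 on the WT arrays, with the ESC arrays at 3.99 and 3.69. All 4 MDSC arrays were thus far above both ESC arrays, and the difference was 4.16 ± 0.19 (17.9-fold, adjusted p = 0.000239). Col1a2 had levels of 9.05 and 9.20 on the Mstn-null arrays, 9.32 and 8.78 on the WT arrays, with the ESC arrays at 4.94 and 3.49. It was higher in MDSC by 4.87 ± 0.44 (adjusted p = 0.00111), with no overlap between arrays, and the chains of type I moved by similar amounts. Both genes were well above background in ESC too.

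Col3a1, the chain of the type III fibrils found with type I in soft tissue, had levels of 7.66 and 8.21 on the Mstn-null arrays, 7.74 and 5.63 on the WT arrays, with the ESC arrays at 3.34 and 0.05. It was higher in MDSC by 5.61 ± 1.09 (adjusted p = 0.00966), but its arrays were spread: WT isolation 2 was the lowest MDSC array, and the ESC arrays stood 3.29 apart. Without ESC passage 12 its difference was 7.26, and without passage 15 it was 3.97. Type V collagen starts the assembly of type I fibrils, and its genes Col5a1, Col5a2 and Col5a3 were higher in MDSC by 4.39 ± 0.34, 5.24 ± 0.30 and 2.94 ± 0.66 (adjusted p = 0.00077, 0.000371 and 0.0151). Col5a2 lies next to Col3a1 on mouse chromosome 1, with no protein-coding gene between them, and its ESC arrays were close, at -2.58 and -2.82.

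Promoter sequences are shown for fibrillar chains that were higher in MDSC, to set their upstream bases side by side. RefSeq gave windows of the 250 bases before the start for 34 of the 42 genes, 37 windows in all on build GRCm38.p6. Capitals mark matches to the letters TATAAA, a core promoter element, to CCAAT, the site class bound by NF-Y, and to GGGCGG, the site class bound by Sp1. Each was searched on both strands, a match on the opposite strand appears as its reverse complement, and no marked matches overlap in the windows shown. The first window is that of Col1a2 (chr6:4505368-4505617, plus strand) and the next that of Col3a1 (chr1:45311288-45311537, plus strand).
Col1a2: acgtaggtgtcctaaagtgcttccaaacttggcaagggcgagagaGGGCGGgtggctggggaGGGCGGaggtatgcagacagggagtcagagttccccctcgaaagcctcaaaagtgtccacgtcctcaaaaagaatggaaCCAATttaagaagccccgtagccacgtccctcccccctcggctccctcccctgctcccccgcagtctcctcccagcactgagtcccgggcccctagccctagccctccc
Col3a1: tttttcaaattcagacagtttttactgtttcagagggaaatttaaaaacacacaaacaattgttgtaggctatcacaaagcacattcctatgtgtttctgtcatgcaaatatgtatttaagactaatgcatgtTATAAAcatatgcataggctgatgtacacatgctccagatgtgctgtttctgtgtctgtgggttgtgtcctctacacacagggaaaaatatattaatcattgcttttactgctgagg
The Col1a2 window held 1 CCAAT and 2 GGGCGG matches at 62.0% GC, and the Col3a1 window held 1 TATAAA match and neither of the others at 35.2% GC. That TATAAA match lay 117 bases before the start, and whether it acts as a promoter element was not tested. Over the 37 windows, TATAAA was in 5 (13.5%), CCAAT in 13 (35.1%) and GGGCGG in 22 (59.5%). Of all 32851 windows in the table, 12.4% held TATAAA, 33.8% CCAAT and 32.7% GGGCGG, and their median GC content was 52.4%, against 59.2% in the collagen windows. These matches describe letters only, and genes that moved alike in the arrays, such as Col1a2 and Col3a1, differed in which motifs they held.

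The type XI genes make the thin fibrils of cartilage. Col11a1 had levels of 1.04 and 2.19 on the Mstn-null arrays, 3.17 and 1.33 on the WT arrays, with the ESC arrays at -4.16 and -2.10. It was higher in MDSC by 5.06 ± 0.83 (adjusted p = 0.00574), without overlap. Its partner chain gene Col11a2 differed by 0.82 ± 0.29 (adjusted p = 0.057) and did not pass, although it passed with quantile normalization (0.97, adjusted p = 0.0203), median centring and normexp background correction. Among the more recently described fibrillar chains, Col27a1 was higher in MDSC by 1.88 ± 0.31 (adjusted p = 0.0059). Col24a1 was well above background on 3 of 4 MDSC arrays and on no ESC array and was at least 2.94-fold higher in MDSC (adjusted p = 0.0266), a call lost with normexp (0.60, adjusted p = 0.084). It was also lost without either Mstn-null array (adjusted p = 0.0542 and 0.0689) and without ESC passage 15 (1.71, adjusted p = 0.138).

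Col2a1, the main chain of cartilage fibrils, stood out from the other fibrillar genes by its spread within groups. Its levels were 2.22 and -0.66 on the Mstn-null arrays, 1.40 and 4.78 on the WT arrays, with the ESC arrays at -0.32 and 0.95. The second WT isolation was the high array, the groups overlapped, and the difference of 1.62 ± 1.27 did not pass (adjusted p = 0.313). The 6 cartilage markers were set beside Col2a1. Their mean level was -1.76 and -2.82 on the Mstn-null arrays, -2.20 and -1.70 on the WT arrays, with the ESC arrays at -3.91 and -3.64. The MDSC arrays stood in the same order as for Col2a1. The 2 highest were close in the marker mean, at -1.70 and -1.76, but far apart for Col2a1, at 4.78 and 2.22. On the MDSC arrays 3 to 4 of the 6 were well above background. Comp, a cartilage and tendon matrix gene, and Sox9 were higher in MDSC than in ESC, Matn3 was lower, Acan and Hapln1 did not pass, Matn1 was not tested, and Matn1 and Matn3 were above background on no MDSC array. The part of cartilage-like cells in the Col2a1 values was not tested.

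In the basement membrane class, the genes of the ubiquitous type IV chains were higher in MDSC. Col4a1 had levels of 3.10 and 4.19 on the Mstn-null arrays, 4.99 and 4.34 on the WT arrays, with the ESC arrays at 0.49 and 1.86. Col4a2, which joins 2 chains of Col4a1 in the common type IV helix, had 3.36 and 4.50 on the Mstn-null arrays, 5.13 and 4.32 on the WT arrays, with the ESC arrays at 0.74 and 1.65. MDSC and ESC arrays did not overlap for either gene, and the differences were 2.98 ± 0.53 and 3.13 ± 0.47 (adjusted p = 0.00724 and 0.00455). The 2 genes lie head to head on mouse chromosome 8, their RefSeq starts 21 bases apart. In each of the 3 groups the same array was the higher one for both genes.

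Col4a5 and Col4a6, a second head-to-head pair, lie on chromosome X and make chains of other type IV helices. The upstream bases of both are shown because only one of these neighbours passed the test (Col4a5 at chrX:141475169-141475418, plus strand, and Col4a6 at chrX:141474077-141474326, minus strand).
Col4a5: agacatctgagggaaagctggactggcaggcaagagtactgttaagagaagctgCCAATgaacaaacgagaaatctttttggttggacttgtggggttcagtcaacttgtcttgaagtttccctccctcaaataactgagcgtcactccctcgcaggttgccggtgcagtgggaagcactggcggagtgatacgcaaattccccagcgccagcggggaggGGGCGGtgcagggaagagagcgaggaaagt
Col4a6: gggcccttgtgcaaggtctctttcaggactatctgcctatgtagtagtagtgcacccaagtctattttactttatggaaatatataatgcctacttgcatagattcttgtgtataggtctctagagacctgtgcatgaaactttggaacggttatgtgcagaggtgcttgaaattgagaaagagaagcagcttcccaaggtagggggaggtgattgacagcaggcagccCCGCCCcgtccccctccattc
The Col4a5 window held 1 CCAAT and 1 GGGCGG match, and that of Col4a6 held 1 GGGCGG match. Col4a5 had levels of 1.23 and 1.84 on the Mstn-null arrays, 1.23 and 1.34 on the WT arrays, with the ESC arrays at -1.63 and -1.38, a difference of 2.91 ± 0.22 (adjusted p = 0.000751). Col4a6 lay between -1.94 and -1.64 on the MDSC arrays and at -2.05 and -2.12 on the ESC arrays, so its groups were close (0.32 ± 0.15, adjusted p = 0.127), and its other probe went the opposite way by -1.40. Col4a4 did not pass either (0.29 ± 0.19, adjusted p = 0.227), while a second probe of it differed by 2.11 and the mean over its probes passed (0.95, adjusted p = 0.00441). Col4a3, the partner of Col4a4 in the helix of the kidney filter, was well above background on no array.

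The FACIT genes split into a part that was bright in MDSC and a part bright in ESC. Col14a1, whose protein coats fibrils in tendon, skin and muscle, had levels of 3.79 and 2.86 on the Mstn-null arrays and 0.63 and 0.32 on the WT arrays, and was not well above background on the ESC arrays, at -6.91 and -6.93. By this probe and the scanner's own background correction, it was at least 127-fold higher in MDSC (log2 difference 8.82 ± 0.30, adjusted p = 0.000116). A second Col14a1 probe was well above background on all 6 arrays and gave a difference of 4.16, so the probes shared the direction but not the size. Col16a1, the gene of a FACIT chain that binds integrins, was higher in MDSC by 4.14 ± 0.71 (adjusted p = 0.00655), and its 3 probes gave 3.49 to 4.14. Col20a1 was higher by only 0.96 ± 0.21 (adjusted p = 0.014).

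Col9a2, a chain of the type IX collagen that decorates cartilage fibrils, was lower in MDSC by -2.35 ± 0.39 on the log2 scale (adjusted p = 0.00602). Its levels were -1.93 and -2.50 on the Mstn-null arrays, -2.40 and -2.17 on the WT arrays, with the ESC arrays at -0.51 and 0.70, with no overlap. Type IX is a trimer of 3 different chains, and of the other chains Col9a1 did not pass (0.36 ± 0.17, adjusted p = 0.118), while Col9a3 was well above background on no array and was not tested. Col22a1, known for its place at the junction of muscle and tendon, exceeded background in ESC, at -3.77 and -2.38, and on no MDSC array. Its level in ESC was at least 2.98-fold higher (adjusted p = 0.00885). Col19a1, next to Col9a1 on chromosome 1, was well above background on WT isolation 1 alone, at -3.59, and was not tested.

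Among the other types, the beaded filament chains went both ways. Col6a1 had levels of 6.30 and 5.99 on the Mstn-null arrays, 5.78 and 6.32 on the WT arrays, with the ESC arrays at 3.80 and -0.51. Col6a2, its neighbour on chromosome 10, had 3.58 and 3.17 on the Mstn-null arrays, 2.86 and 3.38 on the WT arrays, with the ESC arrays at 1.13 and -2.89. For both genes the 4 MDSC arrays lay close together whereas the ESC arrays stood 4.31 and 4.02 apart. The differences of 4.45 ± 1.20 and 4.12 ± 1.12 passed (adjusted p = 0.0268 and 0.0277). Without any one of the MDSC arrays both calls were lost. Without ESC passage 12 the differences were 6.60 and 6.14, and without ESC passage 15 they were 2.30 and 2.11. Their size thus rested on which ESC array was kept. Leaving out either ESC array removes the spread within ESC from the fit, so a pass there decides nothing.

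Col6a4 and Col6a5, later additions to the type VI family that adjoin each other on chromosome 9, exceeded background on the ESC arrays and on no MDSC array. Col6a4 was at -3.68 and -3.61 on the ESC arrays and Col6a5 at -3.31 and -2.87, and in ESC they were at least 2.01-fold and 2.96-fold higher. The differences before that bound, MDSC minus ESC, were -3.12 ± 0.13 and -3.43 ± 0.18 (adjusted p = 0.000187 and 0.000295). They use MDSC values that were not well above background and varied little, so these p-values say little about the bounded folds. A second probe of each was above background on no array. Col6a6, which adjoins Col6a5, was above background on none.

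Col18a1, a basement membrane proteoglycan whose C-terminal fragment is endostatin, was lower in MDSC and well above background on every array. Its levels were 1.56 and 1.69 on the Mstn-null arrays, 2.30 and 1.66 on the WT arrays, with the ESC arrays at 4.99 and 5.54. All MDSC arrays lay below both ESC arrays, the difference was -3.46 ± 0.27 (adjusted p = 0.000759), and its second probe gave -3.64. The window upstream of one of its 2 RefSeq starts (chr10:77166531-77166780, minus strand) is shown as that of a gene lower in MDSC.
Col18a1: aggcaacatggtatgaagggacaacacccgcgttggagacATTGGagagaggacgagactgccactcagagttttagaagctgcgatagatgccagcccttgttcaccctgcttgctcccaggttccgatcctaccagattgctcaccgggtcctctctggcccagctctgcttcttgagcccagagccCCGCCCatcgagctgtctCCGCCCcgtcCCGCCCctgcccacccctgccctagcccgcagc
It held 1 CCAAT and 3 GGGCGG matches, more than the Col1a2 window, and the window of the other start held none of the 3 motifs. Col15a1, the other collagen of this multiplexin kind and a component of muscle basement membranes, did not differ beyond its spread (0.20 ± 0.40, adjusted p = 0.69), and was well above background on both WT arrays and ESC passage 12 alone.

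The short-chain network genes were higher in MDSC or did not pass. Col8a1 and Col8a2, whose chains form the hexagonal lattices of vessel walls and the cornea, were higher by 4.10 ± 0.35 and 2.64 ± 0.56 (adjusted p = 0.000999 and 0.0131). The Col8a2 call was lost without ESC passage 12 (2.10, adjusted p = 0.0772). Col10a1, the collagen of growth plate cartilage, had levels of 0.54 and -1.66 on the Mstn-null arrays, -2.14 and -0.70 on the WT arrays, with the ESC arrays at -1.46 and -4.64. Its groups overlapped, and the difference of 2.06 ± 1.13 did not pass (adjusted p = 0.171). The anchoring fibril gene Col7a1, which ties skin to its basement membrane, differed by 0.39 ± 0.35 (adjusted p = 0.381).

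Of the transmembrane collagens, Col23a1 was higher in MDSC by 1.97 ± 0.34 (adjusted p = 0.00685), Col25a1 did not pass (0.03 ± 0.18, adjusted p = 0.897), and Col13a1 and Col17a1 were not tested. Col28a1, a collagen known from glia of peripheral nerve, had levels of -0.71 and -1.23 on the Mstn-null arrays and -4.19 and -4.13 on the WT arrays, and was not well above background on the ESC arrays, at -7.17 and -6.75. It was at least 5.75-fold higher in MDSC (adjusted p = 0.000285), with the Mstn-null arrays well above the WT arrays. Col26a1, a short collagen of testis and ovary in mouse, was at -6.06 and -4.94 on the Mstn-null arrays, -2.27 and -5.21 on the WT arrays, with the ESC arrays at -1.55 and -1.57. Only WT isolation 1 and the ESC arrays were above background, and the difference of -3.06 ± 0.87 (adjusted p = 0.0317) was lost without either ESC array or either Mstn-null array (adjusted p between 0.0511 and 0.125).

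For genes near background the size of a difference depended on the background correction. A fold given as "at least" holds only for the scanner's own correction and the probe used. On the log2 scale that bound was 6.99 for Col14a1 and 2.52 for Col28a1, and the normexp differences were smaller. With normexp in place of the scanner's own correction, Col14a1 differed by 5.05, Col28a1 by 1.55, Col27a1 by 0.97, Col23a1 by 1.02, Col22a1 by -0.74, Col6a4 by -0.57, Col6a5 by -0.87 and Col26a1 by -1.40, and all 8 still passed.

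The chains that share a helix can be read together. Both type I genes, both tested ubiquitous type IV genes, both tested type VIII genes, all 3 type V genes and the type VI pair Col6a1 and Col6a2 were higher in MDSC, each by a log2 difference of 2.64 or more. By contrast, the type XI genes gave 5.06 and 0.82, and the type IX genes 0.36 and -2.35. The other tested type IV genes gave 2.91 (Col4a5), 0.32 (Col4a6) and 0.29 (Col4a4). Of type VI, Col6a4 and Col6a5 gave -3.12 and -3.43. Where a gene had several probes, these were set beside each other in the plot of probes.

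**Figure D3:**
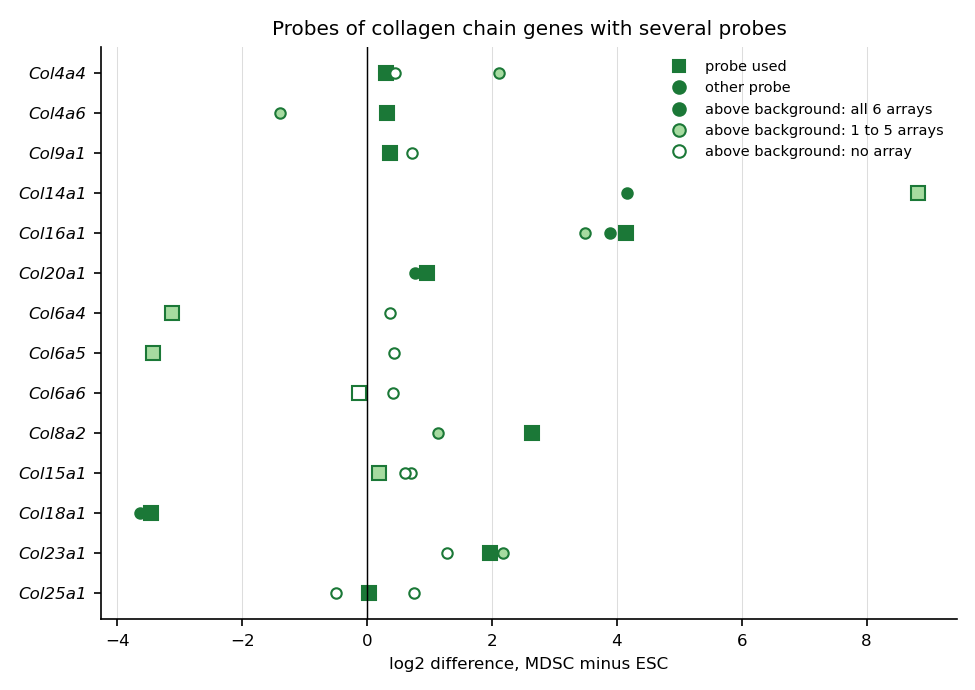
Log2 difference, MDSC minus ESC, of each probe of the 14 collagen chain genes with several probes, with squares for the probe used and circles for the others, filled by how many arrays were above background. The probes of Col18a1 lie at -3.46 and -3.64 and those of Col16a1 between 3.49 and 4.14, while those of Col14a1 lie at 8.82 and 4.16 and those of Col4a6 at 0.32 and -1.40.

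Each genotype of MDSC was also set against ESC. Because both comparisons use the same ESC arrays, their values are given side by side and their likeness is not counted as a result. In Mstn-null MDSC, 21 tested collagen chain genes were higher and 6 lower than in ESC, where 23.3% of all features were higher and 30.8% lower (5849 and 7725, which median centring turned into 6253 and 5473), 54.2% in either direction. In WT MDSC, 19 were higher and 5 lower, where 27.1% of all features were higher and 25.9% lower, 53.1% in either direction. Among the fibrillar genes, Col1a1 differed from ESC by 4.27 in Mstn-null and 4.06 in WT MDSC, Col5a2 by 5.62 and 4.87, Col11a1 by 4.75 and 5.38, Col3a1 by 6.24 and 4.99, and Col2a1 by 0.47 and 2.78.

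The calls of 5 genes differed between these comparisons. Col20a1 was higher than ESC by 1.40 (adjusted p = 0.00796) in Mstn-null MDSC and differed by 0.53 (adjusted p = 0.122) in WT MDSC. For Col24a1 the values were 2.78 (adjusted p = 0.0324) and 2.21 (adjusted p = 0.0625), and for Col26a1 -3.94 (adjusted p = 0.0250) and -2.18 (adjusted p = 0.122). Col9a1 did not pass in Mstn-null MDSC (-0.29, adjusted p = 0.254) and was higher than ESC in WT MDSC (1.02, adjusted p = 0.0110). Col6a2, with the levels given above, passed against ESC in Mstn-null MDSC (4.25, adjusted p = 0.0422) and did not in WT MDSC (adjusted p = 0.0509). The test of the difference between the genotypes, given next, passed for none of them. On the 4 arrays of the slide that holds Mstn-null MDSC and ESC, 19 genes were higher and 6 lower, and the 2 calls lost were Col6a1 and Col6a2. Of all 24367 features tested there, 5617 were higher and 7458 lower. Leaving out an isolation of the genotype compared left 1 array in its group, and fewer collagen chain genes and fewer of all features passed.

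The second question was whether the collagen genes of Mstn-null MDSC differ from those of WT MDSC. No collagen chain gene passed in either direction, as did 0% of all 25057 features with limma, while 6 of the 36 genes and 3671 of all features had an unadjusted p under 0.05. The median log2 difference, Mstn-null minus WT, was 0.08 over the 36 genes and -0.12 over all features. The 11 fibrillar genes ran from -2.32 (Col2a1) to 1.25 (Col3a1), and the type I genes lay near 0: Col1a1 differed by 0.21 ± 0.22 (adjusted p = 0.72) and Col1a2 by 0.07 ± 0.51 (adjusted p = 0.963). With 2 isolations a side a miss does not show that the genotypes are alike.

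Both genes with the largest positive differences lay outside the fibrillar class. Col28a1, whose levels are given above, was higher on both Mstn-null arrays than on both WT arrays by 3.19 ± 0.26 (adjusted p = 0.0554), and it was the 1 collagen chain gene to pass with quantile normalization (3.25, adjusted p = 0.0455). Over its other alternatives the adjusted p ran up to 0.342. Col14a1 likewise had both Mstn-null arrays above both WT arrays, by 2.85 ± 0.34 (adjusted p = 0.0691), and its second probe gave 1.72. Neither rests on a single array, as leaving out 1 MDSC array at a time kept the Col28a1 difference between 2.93 and 3.45 and that of Col14a1 between 2.39 and 3.32, though neither then passed.

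In the other direction, Col9a1 was at -4.00 and -4.07 on the Mstn-null arrays, against -2.64 and -2.80 on the WT arrays, a difference of -1.32 ± 0.19 (adjusted p = 0.0857). Col25a1 was at -3.67 and -3.75 on the Mstn-null arrays, against -2.61 and -2.92 on the WT arrays, a difference of -0.94 ± 0.21 (adjusted p = 0.143). Col15a1 was well above background on both WT arrays and on no Mstn-null array (at least 1.37-fold higher in WT, adjusted p = 0.218), and Col20a1 differed by 0.87 ± 0.24 (adjusted p = 0.207). The basement membrane genes Col4a1 and Col4a2 differed by -1.02 ± 0.61 and -0.79 ± 0.55 (adjusted p = 0.526 and 0.584), and Col2a1 by -2.32 ± 1.47 (adjusted p = 0.55). Marker lists of other cell types were set beside these genes, and not all lists are given. The 10 mesenchymal markers had mean levels of 4.50 and 4.83 on the Mstn-null arrays, against 4.63 and 3.54 on the WT arrays, so the groups overlapped. The 7 macrophage markers had mean levels of 2.13 and 4.04 on the Mstn-null arrays, against 0.29 and -0.89 on the WT arrays. The 10 skeletal muscle markers had -2.02 and -2.46, against 1.05 and -1.55, and the 5 tendon markers 2.22 and 2.23, against 1.95 and 0.07. The 5 Schwann and glial markers, at -2.67 and -2.95 against -2.07 and -2.06, were lower on the Mstn-null arrays, where Col28a1 was higher. No gene of these lists passed between the genotypes. The part of these cell types in the collagen values was not tested.

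**Figure D4:**
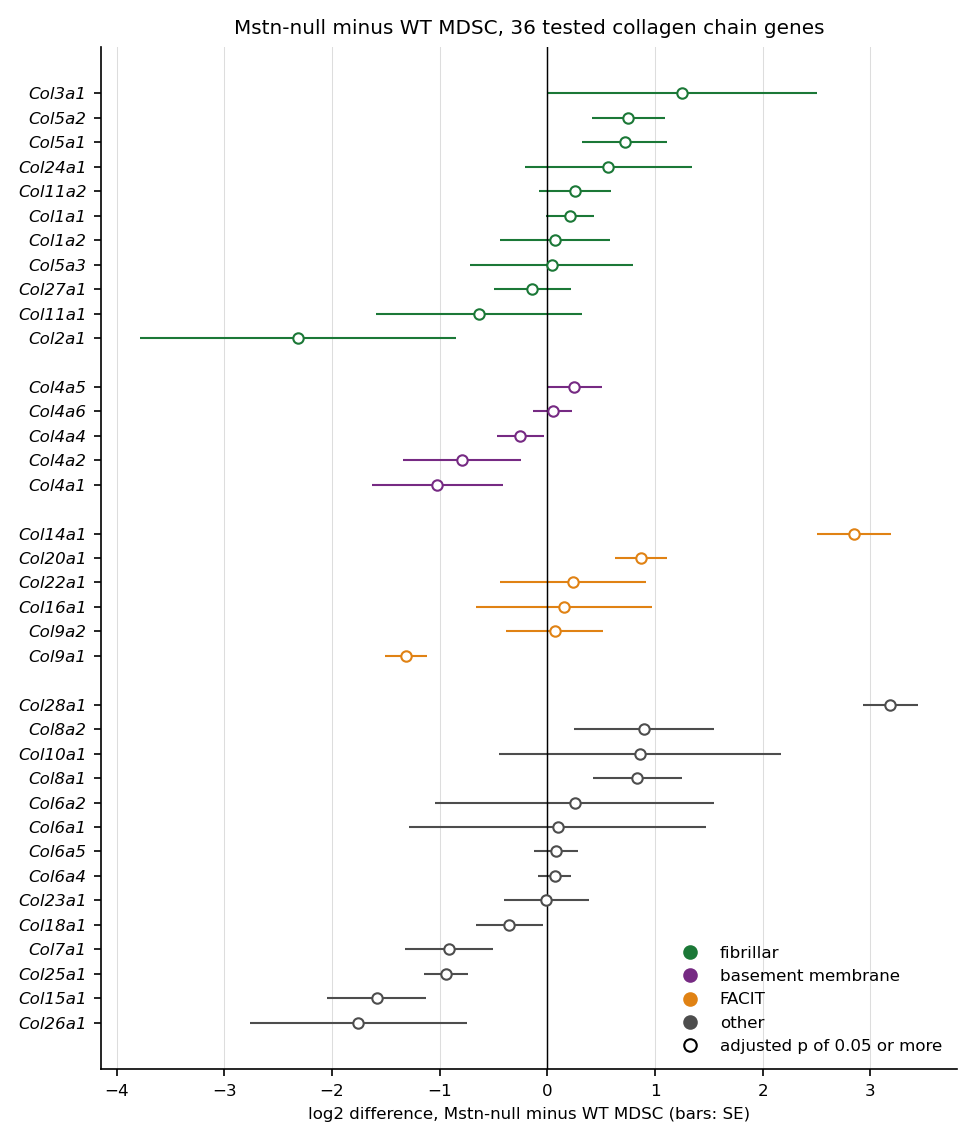
Log2 difference, Mstn-null minus WT MDSC, for the 36 tested collagen chain genes by class, with bars of 1 SE and all points open because no adjusted p was under 0.05. Col28a1 (3.19) and Col14a1 (2.85) lie farthest to the right, and Col2a1 (-2.32), Col26a1 (-1.75), Col15a1 (-1.58) and Col9a1 (-1.32) farthest to the left.

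Wide gaps between the arrays of a group were more frequent among collagen chain genes than among all features in each group. For the 26 collagen chain genes above background throughout, the gap between the ESC arrays was over 1 on the log2 scale in 11 (42.3%), against 6.95% of all 19853 such features. The same gap was found in 6 (23.1%) of the collagen genes between the Mstn-null arrays, against 3.46% of features, and in 5 (19.2%) between the WT arrays, against 7.58%. Passage 12 was above passage 15 by 4.31 for Col6a1, 4.02 for Col6a2, 3.29 for Col3a1, 3.17 for Col10a1 and 2.54 for Col16a1. Passage 15 was above passage 12 for Col11a1, where the difference was -2.07, for Col22a1 (-1.39), Col4a1 (-1.37) and Col2a1 (-1.28).

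The mean level of the mesenchymal markers differed between these ESC arrays, while those of the endoderm and pluripotency markers were close. The 10 mesenchymal markers, which fibroblasts and feeders express, had a mean level of 1.47 on passage 12 and -1.06 on passage 15, with 10 and 8 of them well above background, against 3.54 to 4.83 on the MDSC arrays. The proteoglycan gene Lum was at 2.14 and -5.96, Dcn, another small proteoglycan, at 2.96 and -2.05, and the growth factor receptor gene Pdgfra at 1.01 and -3.11 on passages 12 and 15. The 9 primitive and parietal endoderm markers, which include Pdgfra, had mean levels of -1.40 and -1.39 on these passages, all of them well above background on both. Their members went both ways: the transcription factor genes Gata4, Gata6, Sox7 and Sox17 were lower on passage 12, Dab2, Foxa2, Thbd and Pdgfra were higher on it, and the laminin gene Lamb1 was at 4.48 and 4.49. Gata4, for example, was at -3.73 and -1.55, and Dab2 at -0.56 and -1.63. The pluripotency markers had mean levels of 5.17 and 5.32. The part of fibroblasts or differentiated cells in the ESC collagen values was not tested.

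**Figure D5:**
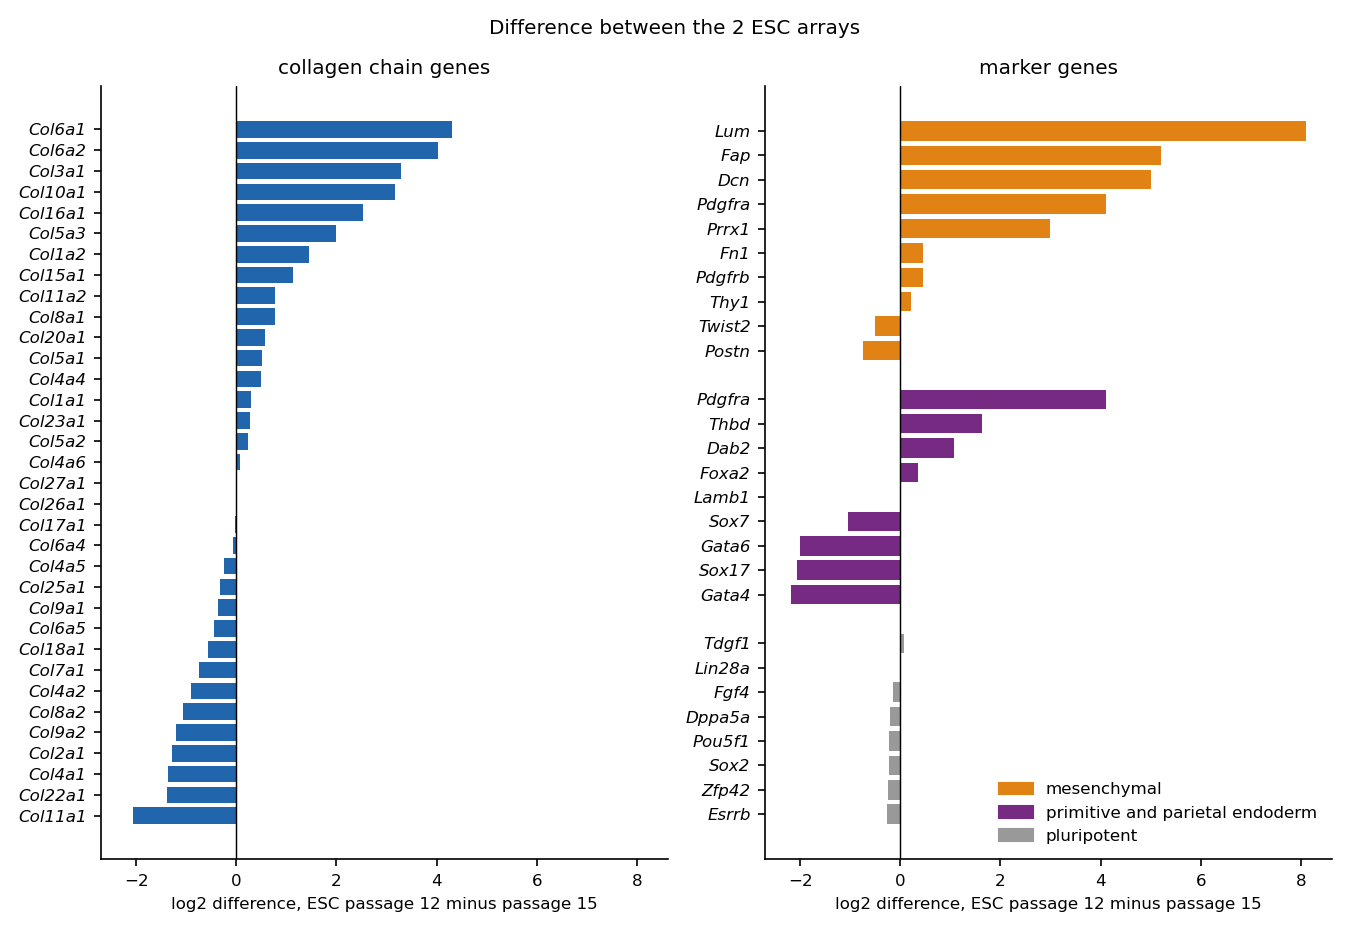
Log2 difference between the ESC arrays, passage 12 minus passage 15, for the collagen chain genes well above background on at least 1 ESC array (left) and for marker genes (right), 1 bar per gene. Col6a1 (4.31), Col6a2 (4.02) and Col3a1 (3.29) lead the left panel beside the mesenchymal genes on the right, while the pluripotency bars are close to 0.

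Collagen chains need helpers to fold, leave the cell and be joined, and these genes were set beside the chains. In the list of folding and hydroxylation genes, all 20 of 20 tested, of 22 listed, were higher in MDSC than in ESC, with a median log2 difference of 2.13. For this and the next lists, the share over all features was 28.3% higher and 31.4% lower. The prolyl 4-hydroxylase subunit gene P4ha2 was higher by 4.08 ± 0.34 (adjusted p = 0.000942) and P3h3, of the prolyl 3-hydroxylase family, by 3.77 ± 0.46 (adjusted p = 0.00249). Fkbp14, an isomerase of the endoplasmic reticulum, had a mean level of 3.90 in MDSC and of -0.10 in ESC (adjusted p = 0.000378). In the processing and crosslinking list, 10 of 13 tested were higher and none lower (median 3.08), among them the lysyl oxidase gene Lox, by 6.44 ± 0.26, the procollagen N-proteinase gene Adamts2, by 6.32 ± 0.80, and Loxl3, by 4.48 ± 0.31.

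Of the genes for collagen receptors and uptake, 5 of 8 tested were higher in MDSC and none lower (median 2.06). The integrin chain gene Itga11 was higher by 5.96 ± 0.96, the receptor tyrosine kinase gene Ddr2, which binds fibrillar collagen, by 4.80 ± 0.65, and Mrc2, which takes collagen into the cell for breakdown, by 4.45 ± 0.55. Of 6 tested genes for proteases that cut collagen, 5 were higher and none lower (median 3.62), with Ctsk, the cathepsin that osteoclasts use, higher by 5.23 ± 0.29, Mmp13 by 5.03 ± 1.44 and the membrane-bound Mmp14 by 3.67 ± 0.16. Mrc2 and Ctsk are also expressed by myeloid cells, whose markers were brighter in MDSC.

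The transcription factors known for acting on collagen genes went both ways, 10 of 15 tested being higher in MDSC and 4 lower (median 1.85). The tendon factor gene Scx was higher by 5.19 ± 0.38, the cartilage factor gene Sox9 by 4.37 ± 0.94 and Foxc2 by 3.49 ± 0.38. The 4 lower genes, named after their values were seen, were those of factors that bind the boxes marked in the promoters above: Sp1 (-1.24 ± 0.20), Nfya (-1.16 ± 0.17), Nfyb (-1.19 ± 0.13) and Nfyc (-0.69 ± 0.21). Between Mstn-null and WT MDSC, none of the genes in these 5 lists passed in either direction.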

How the data were processed

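RNA of 6 cultures was hybridised to one-colour Agilent arrays labelled with Cy3. The deposited scanner files hold intensity values that the authors' scanner software had already corrected for background; that software was Agilent's Feature Extraction (10.7.1.1, as the file headers record), whereas the submitters' processing notes name 9.1. These intensities were divided by the 75th percentile of the non-control spots of each array and taken to log2, after removal of outlier-flagged spots, replicate spots were averaged (23 probes with missing values were dropped). The design's own genome is mouse mm9 per the file headers, and no probe coordinates are printed. Of 55681 probes, 26413 were given 1 symbol through their accession in RefSeq GRCm38.p6 and 29268 none. Where several probes named a gene, the one brightest on average across the 6 arrays was used.

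A gene or unnamed feature was tested where its signal was well above background on both arrays of a group. Group means of 25057 features were fitted with limma 3.58.1 in R 4.3.3 (lmFit and eBayes, 3 residual and 2.02 prior degrees of freedom), and two-sided p-values were adjusted by Benjamini-Hochberg over all of them, with a threshold of 0.05. MDSC is the mean of the 2 genotypes. An exact permutation test of 2 against 2 arrays cannot go below p = 0.333, and was not used. The p-values measure the spread between these cultures, since the labels do not say that the isolations came from separate animals. A fold given as "at least" sets the bright group's mean against, for each dim array, the higher of its lowest signal well above background and the probe's own. It is a bound under the scanner's background correction for the probe used, and not under another correction. The number of arrays limits the precision. The fit was tested on simulated data.

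All collagen chain genes may be named, with up to 3 genes of each helper list (those with the largest differences past the threshold) and any marker. The members, lists and tests were chosen with earlier results of these data known. Alternatives were quantile normalization, median centring, normexp background correction (offset 50, on median signals), other filters, flags kept, the mean over probes, a variance trend, only the groups compared, a replicate block and each array left out. Isolation numbers are shared by both genotypes, but same-numbered arrays deviated in opposite ways (r = -0.397 across features), so they were not taken as pairs. Figures were drawn with matplotlib 3.10.9.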

Additional observations from a re-analysis of the deposited data

Results flagged for a closer look

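For Col9a1, a type IX chain gene, both Mstn-null arrays lay below both ESC arrays, while both WT arrays lay above them, and the log2 difference, Mstn-null minus WT, was -1.32 (limma adjusted p = 0.0857). For Col25a1, a transmembrane collagen gene, the Mstn-null and WT arrays lay on the same opposite sides of the ESC arrays, with a log2 difference of -0.94 (limma adjusted p = 0.143). The test of the difference passed for neither gene. With normexp background correction the differences were -0.61 and -0.35. The WT arrays are alone on their slide, so slide and genotype cannot be told apart in this pattern. Col9a1 was at -4.00 and -4.07 on the Mstn-null arrays, close to the ESC arrays at -3.93 and -3.56. The other probes of both genes were well above background on no array.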

How the results depend on the processing

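Leaving out 1 array at a time gave 18 to 21 higher and 5 to 6 lower collagen chain genes in MDSC against ESC, 11 to 19 and 3 to 6 in Mstn-null MDSC against ESC, 13 to 23 and 4 to 5 in WT MDSC against ESC, and 0 in either direction between Mstn-null and WT MDSC. Testing only features above background on all arrays left 18 higher and 2 lower genes in each comparison with ESC. Of all 19853 such features, 6150 were higher and 6093 lower in MDSC. The counts were 5192 and 5992 in Mstn-null MDSC, and 5920 and 5066 in WT MDSC. The lower genes Col22a1, Col6a4, Col6a5 and Col26a1 were above background on 1 MDSC array or none, so they were not tested there. Col9a2 and Col18a1 were tested. The other alternatives gave 21 to 23 higher and 6 to 8 lower genes in MDSC against ESC. Over all features, 25054 to 37153 being tested, they gave 6731 to 7759 higher and 6191 to 8019 lower. Quantile normalization called 1 collagen chain gene higher in Mstn-null than in WT MDSC, Col28a1. Of all 25059 features it called 11 higher and 14 lower. The replicate block gave 0 higher and 0 lower genes between the genotypes, as over all features. So did the crossed block, which was chosen after seeing the data. The slide as a block was not run, because the WT arrays are alone on their slide. Between MDSC and ESC, Col4a6 turned to -0.54 with the mean over probes, and leaving out 1 array gave -0.37 to 0.77 for Col15a1 and -0.13 to 0.19 for Col25a1. Between Mstn-null and WT MDSC the sign turned with normexp for Col5a3 (-0.010), Col6a4 (-0.077) and Col6a5 (-0.21). It turned with the mean over probes for Col4a6 (-1.22), Col16a1 (-0.029), Col6a4 (-0.68) and Col23a1 (0.28), with median centring for Col27a1 (0.022) and Col23a1 (0.15), and with quantile normalization for Col23a1 (0.054). Leaving out 1 array turned it for 15 genes, whose ranges were -0.0056 to 0.42 (Col1a1), -0.20 to 0.34 (Col1a2), -0.49 to 0.57 (Col5a3), -1.55 to 0.28 (Col11a1), -0.0076 to 0.52 (Col11a2), -0.32 to 1.45 (Col24a1), -0.63 to 0.35 (Col27a1), -0.059 to 0.56 (Col4a5), -0.10 to 0.20 (Col4a6), -0.22 to 0.35 (Col9a2), -0.40 to 0.88 (Col22a1), -0.18 to 0.37 (Col6a1), -0.0090 to 0.51 (Col6a2), -0.24 to 1.96 (Col10a1) and -0.56 to 0.54 (Col23a1). The cause of these turns was not tested. With 2 arrays a group and several genes near background, small differences between the genotypes have no settled sign.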
